A study of Mus musculus with 12 samples.

Results

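Of the 7263 splicing clusters with a fitted value for both conditions, 2411 had the shape of a cassette exon, and in 1151 of these the exon was 52 to 250 nt long with a length not divisible by 3. These frame-shifting cassette exons of middle length are described here. A cassette cluster held exactly 3 introns, namely an intron into the exon, an intron out of it, and a skipping intron that spans both. Exon length was read from the splice coordinates, which gave 3 nt for the microexon of Cyth2 and 61 nt for the exon of Btbd7. The members came from feeder-grown mouse embryonic stem cells (129S x Cast background, doxycycline-inducible Xist) in which both conditions carried FKBP12F36V at the C terminus of endogenous METTL3. The dTAG group of 6 samples had received dTAG-13 for 3 h, and the Ctrl group of 6 samples had not; each comprised the clones C3 and H5 with 3 replicates per clone. All 12 samples were then labelled with 4sU for 30 min, and the labelled RNA was sequenced. The deposited table holds, for each intron, 1 fitted share of the split reads of its cluster per condition, with clones and replicates pooled.

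METTL3 is the catalytic subunit of the complex that writes N6-methyladenosine (m6A) onto RNA, and the fused FKBP12F36V domain lets dTAG-13 bring it to an E3 ligase for destruction. A cassette exon is either joined to its neighbours or left out with both flanking introns as 1 long intron. Because codons are read in triplets, an exon whose length is not a multiple of 3 moves every codon behind it into another frame, so that 1 of the 2 forms of a coding transcript usually meets a stop codon early. Transcripts with a stop codon well before their last exon junction are targets of nonsense-mediated decay (NMD), a cytoplasmic surveillance pathway. Cells use this to lower the output of a gene, above all in genes for splicing factors, where an exon that brings the stop in is called a poison exon.

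The reading frame was rebuilt with and without the exon for the 1025 members that lie inside an annotated coding sequence. In 811 of them the annotated coding transcript holds the exon, and taking it out gave a stop codon earlier than the annotated one and more than 50 nt before the last exon junction in 677 (83.5%). In the other 214 the coding transcript skips the exon, and putting it in gave such an early stop in 197 (92.1%). The first stop, early or not, lay inside the exon itself in 178 of the 214. Of the frame-keeping cassette exons of the same length range, removal gave an early stop in 4 of 641 (0.624%) and insertion in 77 of 119 (64.7%). The new stop came soon: the median distance was 35 nt behind the new junction after removal, and 39.5 nt behind the first base of the exon after insertion, and it lay within 50 nt in 497 of 803 and in 121 of 212 exons.

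The sequences below show where the frame closes. They belong to exons whose difference between dTAG and Ctrl cells reached 0.1 by each of the 2 introns that join the exon to its neighbours, and to Thrap3, whose smaller difference came from a gene list. The first set shows exons that the coding transcript skips, read on the transcript strand from the first base of the exon to the first in-frame stop codon, which is in capitals. The poison exons of Hnrnpl (70 nt, chr7:28817335-28817404), Hnrnpll (83 nt, chr17:80044940-80045022) and Thrap3 (193 nt, chr4:126173137-126173329) are annotated in NMD transcripts only, and the stop lies within them. The exon of Btbd7 (61 nt, chr12:102836372-102836432) is not annotated and is itself open, so that the stop comes in the next exon. All coordinates are 1-based on mm10.
Hnrnpl: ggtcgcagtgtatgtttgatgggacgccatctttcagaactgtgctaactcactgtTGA
Hnrnpll: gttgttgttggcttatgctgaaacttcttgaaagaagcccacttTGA
Thrap3: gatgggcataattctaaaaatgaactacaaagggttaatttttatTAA
Btbd7: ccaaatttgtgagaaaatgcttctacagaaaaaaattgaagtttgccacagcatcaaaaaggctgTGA

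The second set shows what is read when a coding exon is left out. Each begins with the last 15 bases of the exon before the skipped one, runs across the new junction and ends with the first stop codon, in capitals. The skipped exons are those of Trit1 (143 nt, chr4:123046875-123047017), Gtpbp10 (53 nt, chr5:5546353-5546405), Tpp1 (140 nt, chr7:105751590-105751729), Dclre1c (56 nt, chr2:3436438-3436493), Clk3 (97 nt, chr9:57758627-57758723), Suv39h2 (146 nt, chr2:3472502-3472647) and Dguok (100 nt, chr6:83480843-83480942).
Trit1: acgcaaagtggccagttctagaTGA
Gtpbp10: ttgcagattatgcgtatttcagtagcTGA
Tpp1: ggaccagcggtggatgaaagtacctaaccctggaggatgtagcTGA
Dclre1c: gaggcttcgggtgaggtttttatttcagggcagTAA
Clk3: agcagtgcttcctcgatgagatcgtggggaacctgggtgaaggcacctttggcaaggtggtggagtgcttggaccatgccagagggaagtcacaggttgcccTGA
Suv39h2: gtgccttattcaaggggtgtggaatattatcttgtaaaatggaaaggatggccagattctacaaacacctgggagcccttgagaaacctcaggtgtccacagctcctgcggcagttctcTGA
Dguok: taacaagactaccaagTGA
In Trit1 the stop came 7 nt behind the junction and in Gtpbp10 11 nt behind it, whereas in Suv39h2 104 nt of the shifted frame were open. The Dguok stop codon came 1 nt behind the new junction and lay in the last exon, so this skipped form ended after 236 codons, against 277 annotated, without an early stop as defined above.

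Inclusion is given as a fraction from 0 to 1, the mean share of the 2 inclusion junctions over that mean plus the share of the skipping junction. Since the table pools the samples, no value per sample and no replicate error were at hand and no test was made here, the authors' own test columns being left unused. The number of reads behind a value is unknown. The only internal check is the agreement of the 2 inclusion junctions, each set against the skipping junction that they share. Over the members, the difference in inclusion computed from 1 junction differed from that of the other by a median of 0.00885, and by 0.0526 at the 90th percentile. This gap holds neither the error of the shared junction nor the spread between samples. Differences of at least 0.1, a chosen size, were counted, and exons for which each junction alone passed 0.1 in the same direction were counted separately.

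The exons fell into a mostly included and a mostly skipped kind, and the annotation, which the choice of exons did not use, separated them. Of the 1151 members, 852 (74.0%) matched an exon with coding sequence in a protein-coding transcript. Their median inclusion was 0.927 in dTAG and 0.935 in Ctrl cells, and 34 of them (3.99%) had an inclusion below 0.5 in Ctrl cells. By contrast, the 62 exons annotated in NMD transcripts but in no coding transcript had a median inclusion of 0.113 in dTAG and 0.115 in Ctrl cells. The 139 exons without a matching annotated exon had a median of 0.0738 in dTAG and 0.0797 in Ctrl cells. The 64 exons that lie only in the untranslated region of the coding transcripts that hold them had a median of 0.432 in dTAG and 0.426 in Ctrl cells. Such an exon can still fall inside the coding sequence of a transcript that skips it, as the 148-nt exon of AI987944 did. A further 24 exons occurred only in other transcripts of coding genes and 10 in noncoding genes.

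**Figure D1:**
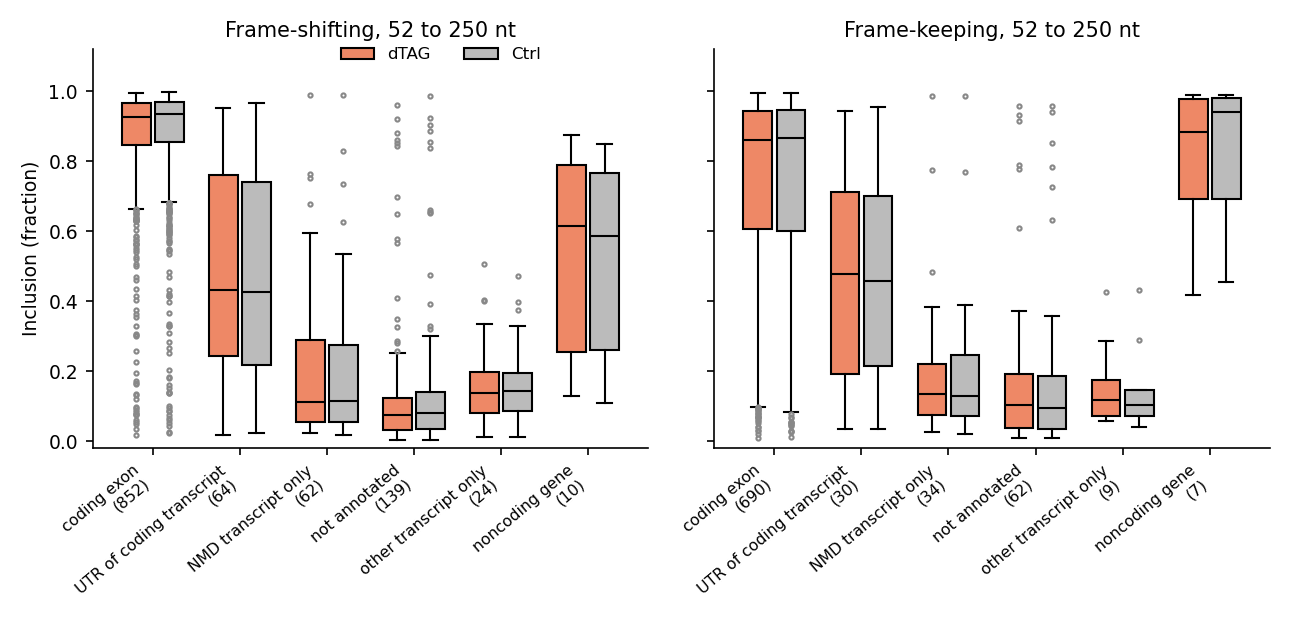
Inclusion (fraction, y axis) by annotation class in dTAG (orange, left box of each pair) and Ctrl (grey, right box) for frame-shifting and frame-keeping cassette exons of 52 to 250 nt; boxes span the quartiles with the median as a line, whiskers reach 1.5 box lengths, circles lie beyond them, and the number of exons is in brackets. Coding exons of the frame-shifting kind had a median of 0.935 in Ctrl cells, against 0.868 for frame-keeping ones, while exons known only from NMD transcripts stood near 0.1 in both panels.

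Side by side, the coding exons of the frame-keeping kind were less uniform: their median inclusion was 0.862 in dTAG and 0.868 in Ctrl cells, and 151 of 690 (21.9%) had an inclusion below 0.5 in Ctrl cells. The skipping intron was annotated for 353 of the 852 frame-shifting coding exons (41.4%) and for 424 of the 690 frame-keeping ones (61.4%). Over all members, 550 were included above 0.9 and 142 below 0.1 in Ctrl cells, and 459 lay between. The form with the early stop was the minor one in Ctrl cells in 862 of 874 members (98.6%), with a median share of 0.0694 in dTAG and 0.0626 in Ctrl cells. For frame-keeping exons with an early stop this held in 80 of 81 (98.8%), so it was not particular to the members. By construction, this form is also the one that the chosen coding transcript lacks.

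Most exons were used alike in both conditions. The median inclusion over the members was 0.881 in dTAG and 0.891 in Ctrl cells, and the median difference, dTAG minus Ctrl, was -0.00314, against -0.00291 over all cassette clusters. For 991 members (86.1%) the difference was smaller than 0.05 either way. Inclusion was higher in dTAG cells by at least 0.1 for 21 members (1.82%), beside 1.70% of all 2411 cassette clusters, and lower by at least 0.1 for 13 members (1.13%), beside 1.87%. Each inclusion junction alone passed 0.1 upward in 12 members, beside 0.871% of all cassette clusters, and downward in 7, beside 0.995%. In the frame-keeping exons of the same lengths, 9 were higher and 14 lower, with 2 and 7 by both junctions. None of these shares was tested, and the background holds the members themselves. The upward share of the members stood near it, while the downward share was the smaller, at 1.13% against 1.87%. The balance between the directions depended on the rule: at a difference of 0.05, 64 members were higher and 96 lower, and with 1 minus the share of the skipping junction 9 were higher and 8 lower.

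**Figure D2:**
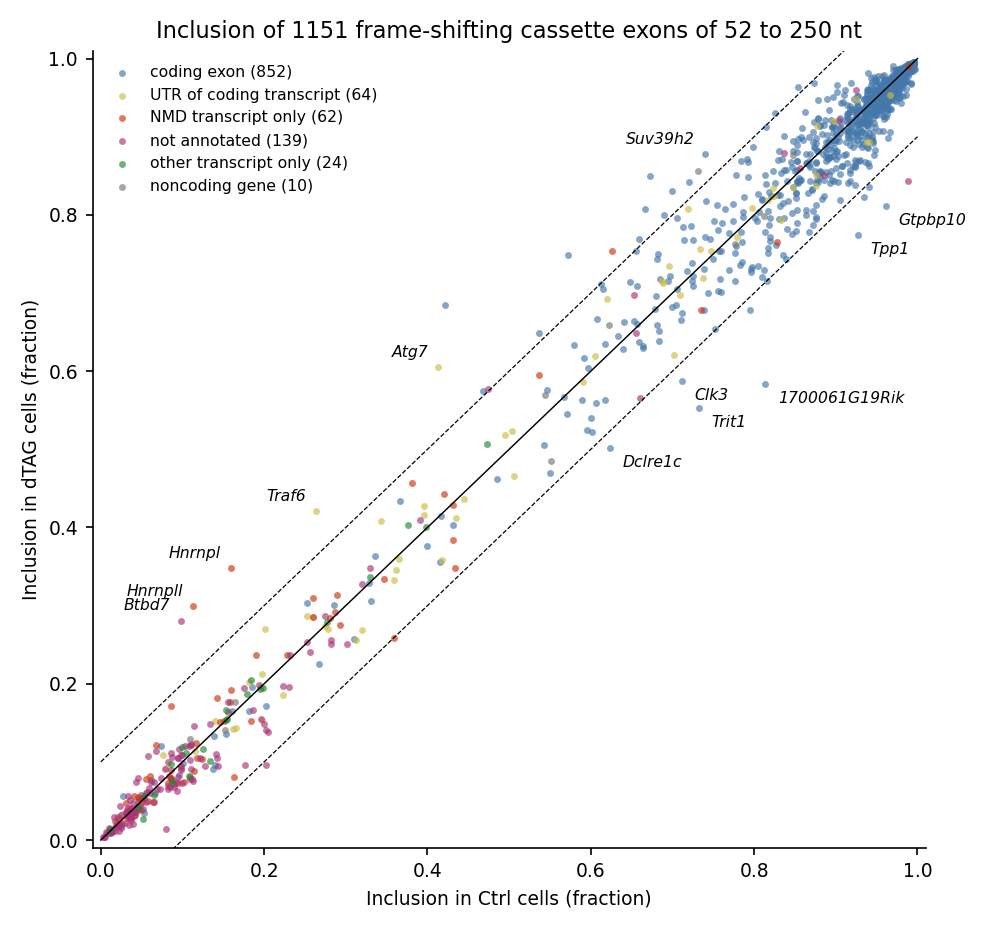
Inclusion (fraction) of each of the 1151 exons in dTAG cells (y axis) against Ctrl cells (x axis), coloured by annotation class; the solid line marks equal inclusion and the dashed lines a difference of 0.1. Coding exons crowd the upper right corner and NMD-only and unannotated exons the lower left, with 21 exons above and 13 below the dashed lines.

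Among the 105 members between 0.3 and 0.7 in Ctrl cells, 12 (11.4%) were higher and 2 (1.90%) lower. Of the 141 frame-keeping exons in that band, 7 (4.96%) were higher and 4 (2.84%) lower. Over all cassette clusters, at any inclusion, the shares were 1.70% and 1.87%. The band was not tested. Since inclusion ends at 0 and 1, a member above 0.9 in Ctrl cells could be past 0.1 only downward, as 5 of 550 were, and one below 0.1 only upward. In the band below 0.1, which held 142 members, the exon of Btbd7 was the only one past 0.1.

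The poison exons of the 2 hnRNP L paralogues had close values. Hnrnpl encodes a splicing regulator that binds CA repeats, and Hnrnpll a relative known for its role in CD45 splicing in T cells. The Hnrnpl exon was included at 0.348 in dTAG and 0.159 in Ctrl cells, a difference of 0.189, and the junction into the exon gave 0.185 and the junction out of it 0.192. The Hnrnpll exon stood at 0.299 in dTAG and 0.113 in Ctrl cells, a difference of 0.186 with 0.165 and 0.205 from the single junctions. With the exon, the reading frame ended after 309 codons against 586 annotated in Hnrnpl, and after 331 against 591 in Hnrnpll. So the form with the early stop took a larger share in dTAG cells in both genes.

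Btbd7, a BTB domain gene known from epithelial branching, shared this pattern: its exon was included at 0.280 in dTAG and 0.0977 in Ctrl cells, a difference of 0.183, although the junctions differed more, at 0.131 into and 0.228 out of the exon. Thrap3, which encodes an SR-related splicing coactivator, had 0.171 in dTAG and 0.0859 in Ctrl cells, a difference of 0.0851 that stayed under 0.1. Of the 62 exons known only from NMD transcripts, 3 (4.84%) were higher by at least 0.1 (Hnrnpl, Hnrnpll and Nfat5) and 1 (1.61%) was lower (Asxl2). Over all cassette clusters these shares were 1.70% and 1.87%, and with so few exons no test was made. The median difference over all 62 was 0.000901. The Nfat5 and Asxl2 exons were singled out after their values were seen. In Nfat5, the gene of a transcription factor of the osmotic response, the exon was included at 0.753 in dTAG and 0.626 in Ctrl cells, so the form with the early stop was already the larger one. In Asxl2, a Polycomb-associated gene, it had 0.258 in dTAG and 0.359 in Ctrl cells.

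Higher inclusion also occurred among the 852 exons of the annotated coding frame. Of these, 13 (1.53%) were higher by at least 0.1, beside 1.70% of all cassette clusters. In 9 of the 13, skipping gave an early stop, beside 677 of 811 (83.5%) among all members tested by removal. In these 9 the form with this stop took a smaller share in dTAG cells. The exon of Dnajb6 is among the 13, but its frame was not rebuilt. Suv39h2, one of the enzymes that methylate histone H3 at lysine 9, had 0.878 in dTAG and 0.740 in Ctrl cells, a difference of 0.138 with 0.175 and 0.109 from the junctions into and out of the exon. Without this exon the frame ended after 116 of 477 codons. Inclusion of the BC004004 exon (214 nt, chr17:29282678-29282891) was 0.748 in dTAG and 0.572 in Ctrl cells, and that of the Fam53c exon (58 nt, chr18:34763073-34763130) was 0.807 in dTAG and 0.667 in Ctrl cells. Dguok, the mitochondrial deoxyguanosine kinase, whose skipped form has no early stop, had 0.850 in dTAG and 0.672 in Ctrl cells.

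A pair of the exons with the largest differences lay in untranslated regions. Atg7 encodes the E1-like enzyme of autophagy, and its 53-nt exon (chr6:114672791-114672843) was included at 0.605 in dTAG and 0.413 in Ctrl cells. The junctions into and out of it gave differences of 0.242 and 0.158. Traf6 encodes a ubiquitin ligase of Toll-like and interleukin receptor signalling, and its 203-nt exon (chr2:101680825-101681027) stood at 0.421 in dTAG and 0.264 in Ctrl cells, with 0.176 and 0.140 from the junctions. Each junction of these exons passed 0.1, and no frame effect applies to them.

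All 7 members with lower inclusion by both junctions were coding exons whose loss gave an early stop. Beside this, 852 of the 1151 members (74.0%) were coding exons, as were 542 of the 550 included above 0.9 in Ctrl cells. Removal gave an early stop in 677 of 811 members (83.5%), and the count of 7 was not tested. The largest difference among the 7 was that of 1700061G19Rik (218 nt, chr17:56884751-56884968), with 0.584 in dTAG and 0.814 in Ctrl cells. This was a difference of -0.230, to which the junctions gave -0.226 and -0.228. Trit1, which encodes the enzyme that isopentenylates certain tRNAs, had 0.553 in dTAG and 0.732 in Ctrl cells, a difference of -0.179 with -0.177 and -0.174 from the junctions. Without this exon the frame closed after 189 of 467 codons. Among the 7, these were the exons on which the junctions agreed most closely.

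Further exons with lower inclusion came from genes of varied roles. Tpp1, the lysosomal tripeptidyl peptidase, had 0.774 in dTAG and 0.927 in Ctrl cells, and Gtpbp10, a GTPase of mitochondrial ribosome assembly, 0.811 in dTAG and 0.962 in Ctrl cells. In Clk3, a kinase that phosphorylates SR proteins, the exon was included at 0.587 in dTAG and 0.712 in Ctrl cells. The junctions of Clk3 gave -0.100 into and -0.157 out of the exon, so that the first only just reached 0.1. Dclre1c, which encodes the Artemis nuclease of end joining and V(D)J recombination, had 0.501 in dTAG and 0.624 in Ctrl cells, and Relt, a member of the tumour necrosis factor receptor family (82 nt, chr7:100848422-100848503), 0.679 in dTAG and 0.796 in Ctrl cells. Gtpbp10 and Tpp1 were included nearly always in Ctrl cells, while Dclre1c was skipped about as often as it was included in dTAG cells.

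**Figure D3:**
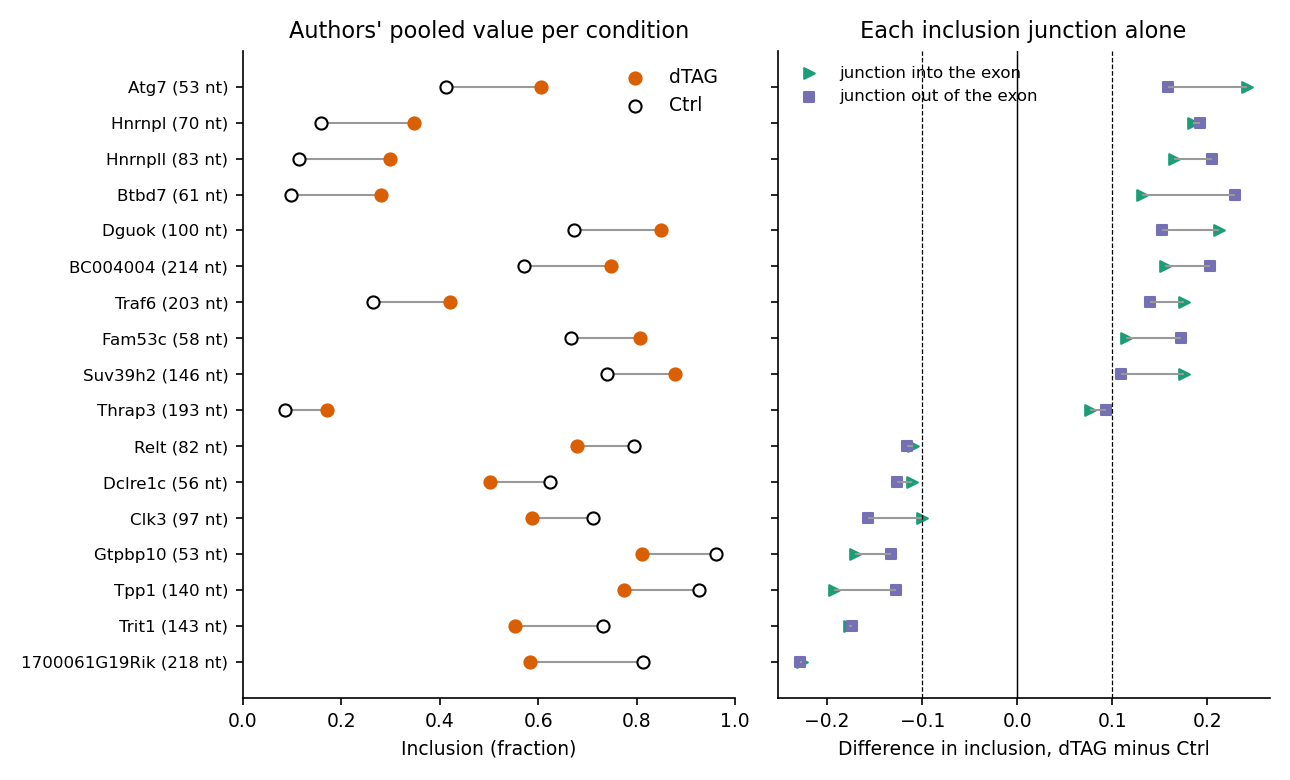
Inclusion (fraction) in dTAG (filled) and Ctrl (open) for the exons with the largest differences by both junctions and for Suv39h2 and Thrap3 (left), and the difference, dTAG minus Ctrl, from the junction into the exon (triangles) and out of it (squares) alone (right), with dashed lines at 0.1 either way. Points are the authors' pooled values and carry no error bar; Hnrnpl, Hnrnpll and Btbd7 stood below 0.4 in both conditions, and for every exon shown except Thrap3 both junctions lie at or beyond 0.1.

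Another 12 exons past 0.1 were named after their values were seen. Among the 8 with higher inclusion, that of Mkln1, a subunit of the CTLH ubiquitin ligase, had 0.964 in dTAG and 0.853 in Ctrl cells, and that of Safb2, which encodes a scaffold attachment factor, 0.800 in dTAG and 0.689 in Ctrl cells. Mcam, a cell adhesion molecule, had 0.930 in dTAG and 0.826 in Ctrl cells with nearly equal differences from its junctions, 0.106 and 0.104. The remaining 5 lay in Itfg2, Rexo4, Zfp808, the noncoding 4930519F16Rik, and Ing4, whose cluster is also assigned to Gm44597. For Zfp808 the junction into the exon gave 0.134 and that out of it -2.64e-09, so its difference came from 1 junction. Of the 12 exons, only those of Mcam and Ing4 passed 0.1 by each junction alone. Among the 4 with lower inclusion, the 121-nt exon of Htt, the huntingtin gene, had 0.823 in dTAG and 0.935 in Ctrl cells, with -0.144 and -0.0908 from the junctions into and out of it. Without it the first stop codon came 4 nt behind the junction. Atp9b, a gene of the P4 ATPase family, had 0.836 in dTAG and 0.940 in Ctrl cells, and Dpp7, a dipeptidyl peptidase gene, 0.716 in dTAG and 0.816 in Ctrl cells. The last, with no gene name, had 0.0954 in dTAG and 0.202 in Ctrl cells.

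The members were also counted by the effect on the frame rather than by inclusion. The form with the early stop took a larger share in dTAG cells by at least 0.1 in 15 of 874 members (1.72%), and a smaller share in 10 (1.14%). Among the 81 frame-keeping exons with an early stop, 77 of them exons put in, this form was larger by that size in 0 and smaller in 0. Over all cassette clusters, 1.70% were higher and 1.87% lower in inclusion, which is another measure than the share of this form. No test was made. The 15 comprised 10 coding exons that were skipped more and 5 exons outside the coding frame that were included more, and the 10 comprised 9 coding exons and the exon of Asxl2. The median difference in the share of this form was 0.00307, with a larger share in 515 members and a smaller one in 359. In 677 of the 874 this form is the one that skips a coding exon. Inclusion was lower in dTAG cells, by any amount, in 57.4% of the members and in 57.1% of all cassette clusters. So this tilt was not particular to forms with an early stop. The medians of the kinds were 0.00411 for skipped coding exons and 0.000165 for added ones.

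**Figure D4:**
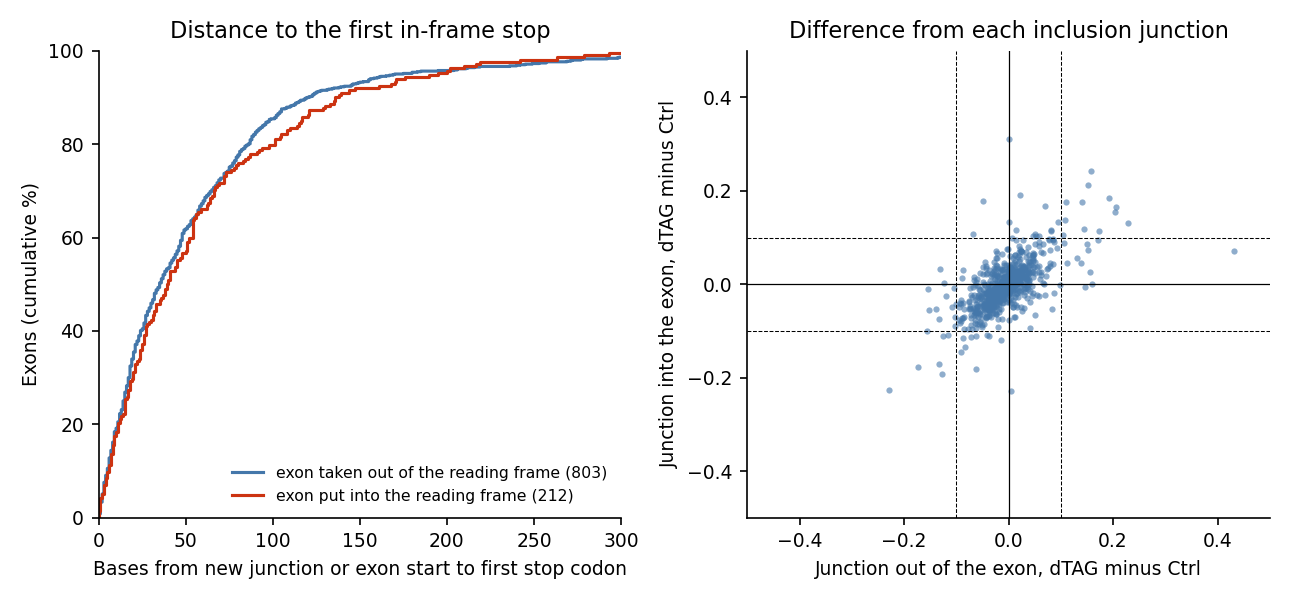
Left, cumulative percentage of exons whose first in-frame stop codon lies within a given number of bases (x axis, cut at 300 nt) behind the new junction when a coding exon is taken out (blue) or behind the first base of an exon put in (red); medians were 35 and 39.5 nt. Right, the difference in inclusion, dTAG minus Ctrl, from the junction into the exon (y axis) against that from the junction out of it (x axis) for the 1151 exons, with dashed lines at 0.1; both junctions share the skipping junction, and 920 exons had the same sign on both.

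Of all 1151 members, 283 (24.6%) were below 0.5 in Ctrl cells, and these were set beside the lists of genes for splicing. The list of hnRNPs and related splicing regulators had 19 members in 14 genes, of which 2 were higher by at least 0.1, the poison exons described above, and none lower, and 6 of the 19 were below 0.5 in Ctrl cells. Beside these counts stand 1.70% higher and 1.87% lower among all cassette clusters. The SR proteins and their kinases had 15 members with a median inclusion of 0.171 in dTAG and 0.143 in Ctrl cells, and 10 of the 15 were below 0.5 in Ctrl cells. Only Clk3 among them was past 0.1. The core spliceosome had 21 members, of which 12 were below 0.5 in Ctrl cells, and all 21 differed by less than 0.05. The largest positive difference among these was that of Prpf39, a protein that associates with U1 snRNP, with 0.285 in dTAG and 0.259 in Ctrl cells. The medians of these lists were -0.00545, 0.00235 and -0.00411, against -0.00291 over all cassette clusters.

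Cleavage and polyadenylation factors had 5 members, all included above 0.9 in Ctrl cells. Cstf2, the RNA-binding subunit of cleavage stimulation factor, held 2 of them: its 79-nt exon (chrX:134060644-134060722) stood at 0.968 in dTAG and 0.992 in Ctrl cells, and its 137-nt exon at 0.982 in dTAG and 0.980 in Ctrl cells. For Papolg, a poly(A) polymerase, the values were 0.952 in dTAG and 0.928 in Ctrl cells. All 5 differed by less than 0.05.

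The m6A machinery had 4 members, none past 0.1. In Mettl3 itself, the 176-nt exon (chr14:52298640-52298815) was included at 0.629 in dTAG and 0.664 in Ctrl cells, a difference of -0.0350. Wtap encodes a regulatory subunit of the writer complex. Its unannotated 202-nt exon had 0.0145 in dTAG and 0.0797 in Ctrl cells, but the junctions disagreed, with 0.00368 into and -0.124 out of the exon, so this cluster did not behave as a simple cassette. By 1 minus the share of the skipping junction its difference was -0.119. The paper reports a splicing change at a Wtap intron after METTL3 depletion and classes it as an alternative last exon. Whether this cluster lies in that intron was not examined here.

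Factors of nuclear RNA decay and export had 9 members, all within 0.05. Among the factors of NMD, Smg1, the kinase of UPF1, had 0.403 in dTAG and 0.431 in Ctrl cells. Dis3, a nuclease of the exosome, had 0.152 in dTAG and 0.184 in Ctrl cells, and Alyref, an adaptor of mRNA export, 0.0949 in dTAG and 0.127 in Ctrl cells.

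Chromatin genes were mostly included and mostly alike. Of 13 members in genes of chromatin silencing, Suv39h2 alone was past 0.1, and Ehmt2, the G9a methyltransferase, had 0.877 in dTAG and 0.947 in Ctrl cells. Tasor, which belongs to the HUSH complex of heterochromatin, had 0.946 in dTAG and 0.952 in Ctrl cells. None of the 21 members in genes of chromatin remodelling and acetylation reached 0.05, the largest difference being that of Kdm5a, a demethylase of histone H3 lysine 4, with 0.866 in dTAG and 0.914 in Ctrl cells. Kat7, an acetyltransferase, had 0.675 in dTAG and 0.712 in Ctrl cells.

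In the remaining lists, the ubiquitin and proteasome list had 26 members with Btbd7 higher and Fbxl5 lower. This list does not hold the ubiquitin ligase genes Traf6, Mkln1 and Cop1, which were past 0.1 as well. None of the lists that follow had a member past 0.1. The DNA repair and telomere list, which does not hold Dclre1c, had 22 members, among them Palb2, the partner of BRCA2, with 0.805 in dTAG and 0.872 in Ctrl cells, and Polh, a translesion polymerase, with 0.709 in dTAG and 0.656 in Ctrl cells. Of the 13 members in mitosis and centrosome genes, Cenph, a kinetochore subunit, had 0.967 in dTAG and 0.902 in Ctrl cells. Kif23, a kinesin of cytokinesis, had 0.892 in dTAG and 0.946 in Ctrl cells. Membrane traffic had 10 members, with Vps39, a subunit of the HOPS tethering complex, at 0.721 in dTAG and 0.809 in Ctrl cells and Eps15, an endocytic adaptor, at 0.795 in dTAG and 0.876 in Ctrl cells. The 6 members in translation genes all differed by less than 0.05, among them Eif4e, the cap-binding protein, with 0.966 in dTAG and 0.973 in Ctrl cells and Pum2 with 0.0921 in dTAG and 0.0985 in Ctrl cells. Across the 17 lists, 190 members were covered, of which 5 (2.63%) were higher and 2 (1.05%) lower, beside 1.70% and 1.87% of all cassette clusters. These small counts were not tested.

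The values are shares of junctions and not expression, so for cell type markers only the presence of a tested cluster can be given. Such a cluster was present for 7 of 9 stem cell markers, for 1 of 8 fibroblast markers (Fn1) and for none of 7 differentiation markers. A gene without alternative introns has no cluster whatever its expression, so these counts cannot show how pure the cells were. Pluripotency genes held 3 members, all differing by less than 0.05. The 121-nt exon of Klf4, one of the reprogramming factors, was included at 0.976 in dTAG and 0.947 in Ctrl cells, and the unannotated 85-nt exon of Dppa4 at 0.0314 in dTAG and 0.0249 in Ctrl cells. The feeder and differentiation lists held no member.

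Several genes held more than 1 of the exons. Single gene names were given for 1126 members in 1000 genes, of which 103 genes had 2 to 4 members each. Only 6 of these 103 had a member past 0.1, and none had 2. Trit1 was one of them: beside its 143-nt exon, the 110-nt exon had 0.470 in dTAG and 0.550 in Ctrl cells, a difference of -0.0805, and the 113-nt exon had 0.751 in dTAG and 0.777 in Ctrl cells, a difference of -0.0261. All 3 values were lower in dTAG cells. In Rbm5, which encodes a splicing factor, the exons of 85, 61 and 74 nt differed by -0.0638, -0.00895 and -0.0118. In Orc1, a subunit of the origin recognition complex, the exons of 125, 154 and 172 nt differed by 0.0183, 0.0191 and 0.0256. Exons of 1 gene share its transcripts and are not independent. These 3 genes were named after their values were seen.

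In their sequence the members were ordinary exons. The lengths left a remainder of 1 in 573 and of 2 in 578 after division by 3, with a median of 110 nt. Median GC content was 47.3%, against 48.6% in the frame-keeping exons of the same lengths. The introns on either side had medians of 1358 nt before and 1303 nt after the exon, against 1434 and 1604 nt. All splice sites of the members read GT-AG or, in 21 clusters, GC-AG at 1 or more introns. The intron after the exon began with GTAAG or GTGAG in 549 members (47.7%), in 345 frame-keeping exons (41.5%) and in 10 of the 34 members past 0.1 (29.4%), a difference that was not tested.

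The letters GGACT, the commonest core of m6A sites, were searched on the transcript strand only, in the exon and in 100 nt of intron on either side. They occurred inside 124 members (10.8%), against 217 of all 1983 cassette exons of 52 to 250 nt (10.9%). Of the 34 members past 0.1, 2 held the letters in the exon, Fbxl5 and Dpp7. Counting the flanks too, 5 of the 34 (14.7%) and 261 of the 1151 (22.7%) had a match. A match is a description of the letters and not a methylated site.

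The difference had the same sign from both junctions in 920 members (79.9%), and in 31 of the 34 past 0.1, although the skipping junction that both share ties their signs together. Some of the 34 were however poorly described as cassettes, since only 19 passed by both junctions. The largest difference of all, 0.264 in Dnajb6, a gene of a DNAJ co-chaperone, came from 0.685 in dTAG and 0.421 in Ctrl cells, but the junction into the exon gave 0.0704 and that out of it 0.432. In Fbxl5, an F-box gene of iron sensing, the exon had 0.843 in dTAG and 0.988 in Ctrl cells, with 0.0337 into and -0.131 out of it. For Cop1, a ubiquitin ligase gene, the junction into the exon gave 0.312 and that out of it -0.000120. Dnajb6 and Cop1 were named after their values were seen. In 44 members the inclusion levels from the 2 junctions lay more than 0.2 apart in Ctrl cells already.

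At the limits of the length range the exons did not stand apart. The 10 members of 52 nt differed by -0.0859 to 0.0218 between dTAG and Ctrl cells, with Ylpm1 lowest at 0.787 in dTAG and 0.873 in Ctrl cells and Afg1l highest. Of 51 nt there were 15 cassette exons outside the range, which differed by -0.229 to 0.0193. At the upper end, the 2 members of 250 nt, in Nvl and Mcm6, differed by 0.0333 and 0.00281. The next longer cassette exon, of 252 nt in Larp4b, differed by 0.0450.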

How the data were processed

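Newly made RNA of 12 samples was measured by 4sU-seq. Per the methods and labels, the authors aligned reads to mm10 with STAR 2.5.2b, kept uniquely mapped split reads and ran LeafCutter with a minimum number of split reads per cluster, in 1 comparison with both clones pooled. They deposited, for each intron, a fitted fraction per condition (used here), and their own comparison columns (effect, difference, likelihood ratio, p-values), which were not used. Depth per sample is not given in the sources used here.

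Inclusion, differences (dTAG minus Ctrl) and counts past 0.1 were computed with pandas 2.3.3 and tested on simulated clusters. Strand came from splice motifs, present in 20422 of 20437 introns on GRCm38, and equalled the annotated strand in 1144 of 1144 members. For members without a matching annotated exon this was mostly fixed beforehand, since their transcripts were picked by that strand. Exons were matched to GENCODE vM21, an earlier release than the one the study names for its m6A sites; for LeafCutter the release is not given in the sources used here. Named exons were up to 8 per direction with the largest difference by both junctions, up to 2 per gene list, a few chosen genes and those at the length limits; some of them are not reported here. Members and lists were chosen with earlier results of these data known. Sequences are from GRCm38.p6 (RefSeq).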

Additional observations from a re-analysis of the deposited data

How the results depend on the processing

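The counts of 21 higher and 13 lower exons depended on the threshold: at a difference of 0.05 they were 64 and 96, and at 0.2 they were 1 and 1. When each junction had to pass alone, 12 and 7 were counted, and with 1 minus the share of the skipping junction, a measure that counts the 2 inclusion junctions together and so runs on another scale, 9 and 8 were found. With that measure the median inclusion was 0.937 in dTAG and 0.942 in Ctrl cells, and with only members whose minor form reached 0.05 it was 0.831 in dTAG and 0.839 in Ctrl cells. Using only the junction at the 5' side or the 3' side, or leaving out clusters with several or no gene names, kept both counts within 1.5 times and both medians within the gap between junctions. The median difference stayed negative under all 5 alternatives run for it. Of the 18 exons past 0.1 that the naming rule gave, Fbxl5 alone turned direction, at 0.0337 from the 5' side junction; 16 passed by the 5' side, 18 by the 3' side and 10 by the skipping share. The share of annotated exons was 87.9%, and 87.5% when both introns had to lie in 1 transcript.

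No paired analysis was possible because the table holds 1 pooled value per condition. Likewise no replicate or clone was left out, RNA of the feeder cells was not separated, and read depth, which sets the precision of every share, is unknown.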
